A study of Mus musculus with 8 samples.

Results

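Genes whose products detect, split or clear stalled ribosomes were followed through RNA-seq and ribosome profiling of mouse pancreatic tumour cells, with and without leucine and with and without the kinase GCN2. The set of 10 was chosen by name from their known roles, out of 55536 genes listed in the count tables, of which 21379 could be matched to a protein-coding class. They are Pelo, Hbs1l, Gtpbp1 and Gtpbp2 (ribosome rescue), Zfp598, Ascc2, Ascc3 and Map3k20 (collision sensing), and Ltn1 and Nemf (clearance of the unfinished protein). All 10 were counted deeply enough in both assays to be compared, under the filter given below. None of them differed by 2-fold or more, with a counting interval clear of 0, in any of 15 comparisons. Among all measured protein-coding genes, 1.36% to 8.35% did, depending on the comparison. For 10 genes a count of 0 is near that share and does not set them apart.

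When a ribosome stops on a message, the next one can run into it, and the interface between the collided pair is what the cell reads. ZNF598, encoded by Zfp598, is a ubiquitin ligase that marks the small subunit of collided ribosomes, and the ASC-1 complex, with the helicase ASCC3 and the ubiquitin-binding ASCC2, pulls the leading ribosome apart. Map3k20 encodes the kinase ZAK, which binds stalled and collided ribosomes and starts p38 and JNK signalling. Pelota and its partner GTPase HBS1L free ribosomes stuck at the end of a broken message or with an empty decoding site. GTPBP1 and GTPBP2 are GTPases related to HBS1L, and loss of Gtpbp2 in mice that lack a brain arginine transfer RNA leads to stalling and neurodegeneration. After splitting, NEMF and the ubiquitin ligase Listerin, encoded by Ltn1, deal with the nascent chain left on the large subunit. GCN2 is itself activated on stalled ribosomes and by uncharged transfer RNA. Its target is the initiation factor eIF2alpha, and once that is phosphorylated most initiation slows while the mRNA of the transcription factor ATF4 is translated more.

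The cells were KRPC-A, a line of PDAC-like pancreatic tumor cells (PDAC, pancreatic ductal adenocarcinoma) from genetically engineered mice on a C57BL/6 background. Cells with intact Gcn2 (Gcn2 WT) and cells lacking it (Gcn2 KO) spent 1 h in amino acid-replete or in leucine-free medium, and each of the 4 states gave 1 RNA-seq and 1 footprint library. The 8 libraries are therefore 8 groups of 1, with no replicates. How the knockout was made, and whether the KO cells are a clone or a pool, is not given in the sources used here. A difference between WT and KO cells therefore cannot be told apart from a difference between 2 cell lines.

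Reads on all genes numbered 49136610 to 60680169 in the RNA-seq libraries and 2671491 to 9993211 in the footprint libraries. The WT leucine-free footprint library was the shallowest. Wherever 4 values follow each other, they stand for WT with leucine, WT without it, KO with leucine and KO without it. The knocked-out gene, Eif2ak4, stood at 87.6, 71.5, 13.9 and 17.0 CPM in RNA and at 60.8, 65.8, 7.33 and 16.4 CPM in footprints. CPM are counts per 1000000 protein-coding reads after scaling. Atf4 footprints were 174, 532, 201 and 214 CPM, so the WT library without leucine was the high one. Atf4 RNA was 267, 498, 474 and 538 CPM, with WT replete low and both KO libraries near WT without leucine. Of the epithelial markers, Sox9 had 6431, 7630, 11150 and 23285 RNA counts, Krt18 had 2499, 4274, 5565 and 8770, and Krt8 had 750, 1107, 1102 and 1503. Each of these was higher without leucine in both genotypes, and higher in KO than in WT cells of the same medium. Cdh1 had 53 to 137 counts, while Krt19 had 7 to 25 and Epcam had 0 in all 4. Acinar, immune and endothelial markers had at most 19 RNA counts. The fibroblast marker Col1a1 had 632, 698, 176 and 186 RNA counts, and Dcn and Pdgfra had at most 17. The part of these differences between WT and KO cells in the genotype ratios below was not tested.

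Per kilobase of exon, the 10 genes spanned a wide range of RNA level. Ltn1, the Listerin ligase, was the highest at 41.4 to 43.3 CPM per kb over the 4 RNA libraries, and Map3k20 followed at 36.2 to 40.7. Hbs1l lay at 17.8 to 21.8 CPM per kb. Zfp598 (11.1 to 13.3), Gtpbp1 (10.2 to 14.4), Ascc2 (11.1 to 13.0), Ascc3 (8.75 to 11.6) and Nemf (8.43 to 10.7) formed a middle group in which the ranges of neighbours overlapped. Gtpbp2 was lower, at 2.53 to 3.38 CPM per kb, and Pelo was the lowest, at 0.488 to 0.718.

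In footprints the order changed. Ltn1 was again highest, at 29.9 to 36.0 CPM per kb of exon, and Nemf, in the middle group in RNA, was next with 17.9 to 21.3. Gtpbp1, Ascc2, Map3k20 and Zfp598 could not be ordered, since their ranges, which together ran from 10.8 to 16.8 CPM per kb, overlapped between neighbours. Ascc3, Hbs1l and Pelo followed, also overlapping between neighbours, from 9.58 down to 3.80, and Gtpbp2 was lowest at 1.91 to 2.85. Exon length includes untranslated regions, so a gene with long untranslated ends has a lower footprint value per kilobase than its coding density.

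**Figure D1:**
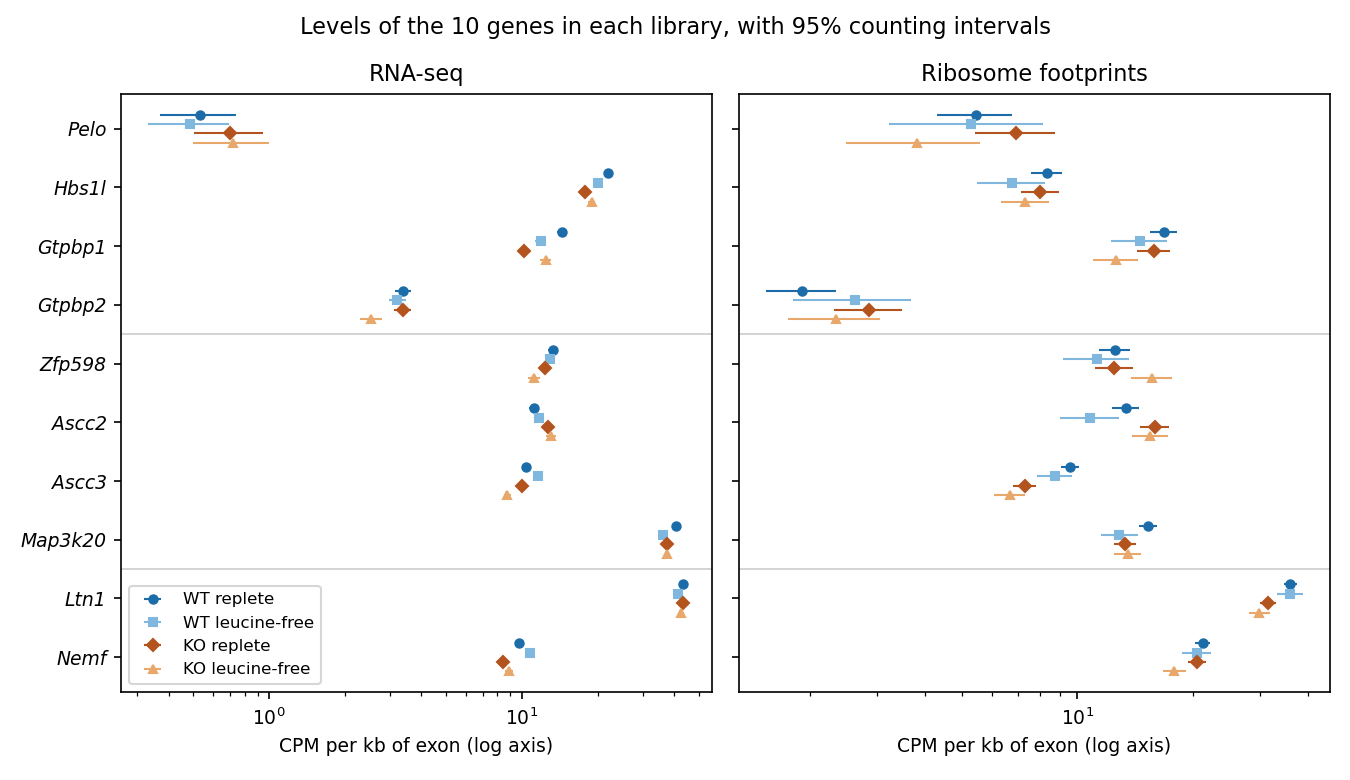
RNA (left) and ribosome footprint (right) levels of the 10 genes as CPM per kilobase of exon on log axes, 1 point per library, with exact Poisson 95% counting intervals; grey lines separate rescue, collision-sensing and nascent-chain genes. Ltn1 is highest in both assays, Pelo lowest in RNA and Gtpbp2 lowest in footprints, and the points of several genes in the middle of the range overlap.

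Pelo needs separate care. Its 2 exon blocks lie on the minus strand of chromosome 13, chr13:115088355-115090186 on GRCm38, inside the span of Itga1, and 1074 of its 1600 exonic bases (67.1%) are shared with other annotated genes. Gm49395, on the same strand, covers 739 of these bases and Gm10734, on the opposite strand, 468. The authors' counting dropped reads that overlap several genes and used no strand option, so Pelo was counted over the remaining exon sequence. It had 35, 31, 42 and 35 RNA counts and 78, 20, 71 and 26 footprint counts. These counts bound every statement on Pelo, and its level per kilobase is below what a count over the whole gene would give. Of the other genes, Gtpbp1 shares 6.35%, Hbs1l 4.40% and Nemf 1.57% of its exonic bases, each with a gene on the opposite strand, and the other 6 share none.

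The first question was whether 1 h without leucine changed the RNA of these genes. In WT cells none of the 10 passed the threshold of 2-fold with an interval clear of 0, beside 1.71% of the 10808 protein-coding genes measured in RNA (mean count of 30 or more). Of the members, 3 of 10 had a ratio above 0, beside 51.5% of all genes, and their median log2 ratio was -0.07 against 0.01 for all genes. In KO cells again none passed, beside 3.16% of genes. There 5 of 10 were above 0, beside 49.4%, and the median was 0.02. All of these ratios lay within the central 95% of the 500 genes nearest in mean count. Intervals cover counting error only, and no ratio has a replicate check.

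Gtpbp1, the GTPase, had the member RNA ratio farthest below 0 in WT and farthest above 0 in KO. Its RNA stood at 57.5, 47.4, 40.7 and 49.7 CPM. The WT replete library was the highest and the KO replete library the lowest, with the leucine-free pair between them. The log2 ratio of leucine-free to replete was -0.28 in WT (95% counting interval -0.37 to -0.19) and 0.29 in KO (0.18 to 0.39). For Gtpbp2 the interval was clear of 0 in KO cells and not in WT cells. Its RNA was 17.9, 17.1, 17.9 and 13.4 CPM, so that the KO leucine-free library alone was low, with a log2 ratio of -0.41 (-0.59 to -0.23) in KO and -0.07 (-0.23 to 0.08) in WT.

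Hbs1l, the partner of Pelota, had 132, 121, 108 and 114 CPM in RNA. Its leucine log2 ratio was -0.13 in WT (-0.19 to -0.08) and 0.08 in KO (0.01 to 0.15), both small. The helicase gene Ascc3 ran the other way, at 174, 193, 167 and 146 CPM. Its log2 ratio was 0.15 in WT (0.10 to 0.20) and -0.20 in KO (-0.25 to -0.14). Gtpbp1, Hbs1l and Ascc3 were thus the 3 of 10 members with opposite signs in WT and KO and both intervals clear of 0, beside 15.1% of the 10808 genes. Zfp598 RNA differed by -0.04 in WT and -0.15 in KO, and Ascc2 by 0.07 and 0.04. Map3k20 was at 414, 368, 380 and 380 CPM, with log2 ratios of -0.17 (-0.20 to -0.14) in WT and 0.00 (-0.04 to 0.03) in KO. Its WT replete library was thus the one that stood apart.

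Of the nascent-chain genes, Ltn1 had the steadiest RNA of the 10 members, at 339, 325, 340 and 334 CPM, the highest library 1.05 times the lowest. Nemf RNA had log2 ratios of 0.15 (0.08 to 0.21) in WT and 0.08 (0.01 to 0.16) in KO, so both genotypes were slightly higher without leucine. Pelo, with about 35 counts a library, had intervals from -0.87 to 0.61 in WT and from -0.65 to 0.72 in KO.

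Ribosome footprints count ribosomes on all copies of a gene's message, here scaled as a share of the library. Their ratios are therefore relative to other genes, and a change shared by all genes would not show. Here too no member passed in either genotype. In WT cells the background was 1.46% of 9164 genes measured in footprints, and in KO cells 2.10%. In each genotype 2 of 10 members were above 0, beside 51.1% of genes in WT and 49.4% in KO. The member medians were -0.14 in WT and -0.13 in KO, against 0.01 and -0.01 for all genes (to 2 decimals). The genes above 0 were not the same: Gtpbp2 and, by 0.003, Ltn1 in WT, and Zfp598 and Map3k20 in KO.

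Gtpbp2 had the highest footprint ratio of the members in WT cells and one below 0 in KO cells. Its footprints were 10.1, 13.9, 15.1 and 12.4 CPM, from 91, 33, 97 and 53 counts. The WT replete library was the lowest and the KO replete library the highest. Its leucine log2 ratio was 0.47 in WT (-0.16 to 1.05) and -0.28 in KO (-0.80 to 0.21), and both intervals include 0. Gtpbp1 footprints were 67.2, 58.2, 63.3 and 50.5 CPM, lower without leucine in both genotypes, by -0.20 (-0.49 to 0.06) in WT and -0.32 (-0.57 to -0.08) in KO. Hbs1l footprints were 50.3, 40.9, 48.5 and 44.2 CPM, with ratios of -0.29 and -0.13 whose intervals include 0.

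Zfp598, the collision ligase, had the highest footprint ratio of the members in KO cells, inside the range of genes of like count (-0.61 to 0.69). Its footprints were 48.8, 43.9, 48.6 and 61.0 CPM, so the KO leucine-free library was high and the other 3 were alike. The log2 ratio was 0.33 in KO (0.09 to 0.57) and -0.15 in WT (-0.48 to 0.16). Ascc2 footprints were 66.5, 53.6, 79.0 and 77.0 CPM, lowest in WT leucine-free cells. The Ascc2 ratio was -0.31 in WT (-0.60 to -0.03) and -0.04 in KO (-0.24 to 0.16). Its partner Ascc3 had ratios of -0.13 in both genotypes, at 160, 146, 121 and 111 CPM, and its 2 KO libraries lay below both WT libraries. Map3k20 footprints were 156, 131, 136 and 138 CPM, so again the WT replete library stood above the other 3, with ratios of -0.25 (-0.43 to -0.07) in WT and 0.03 (-0.13 to 0.18) in KO.

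Ltn1 footprints were 282, 283, 247 and 234 CPM. They did not differ beyond counting error between media in either genotype, with ratios of 0.00 (-0.12 to 0.13) in WT and -0.08 (-0.19 to 0.04) in KO, and both KO libraries were below both WT libraries. Nemf footprints were 224, 216, 217 and 189 CPM, with ratios of -0.05 in WT and -0.20 (-0.32 to -0.07) in KO. Pelo footprints had the lowest ratio of all members, -0.85 (-1.57 to -0.20) in KO cells, from 71 and 26 counts. In WT cells the Pelo ratio was -0.02 (-0.83 to 0.68).

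**Figure D2:**
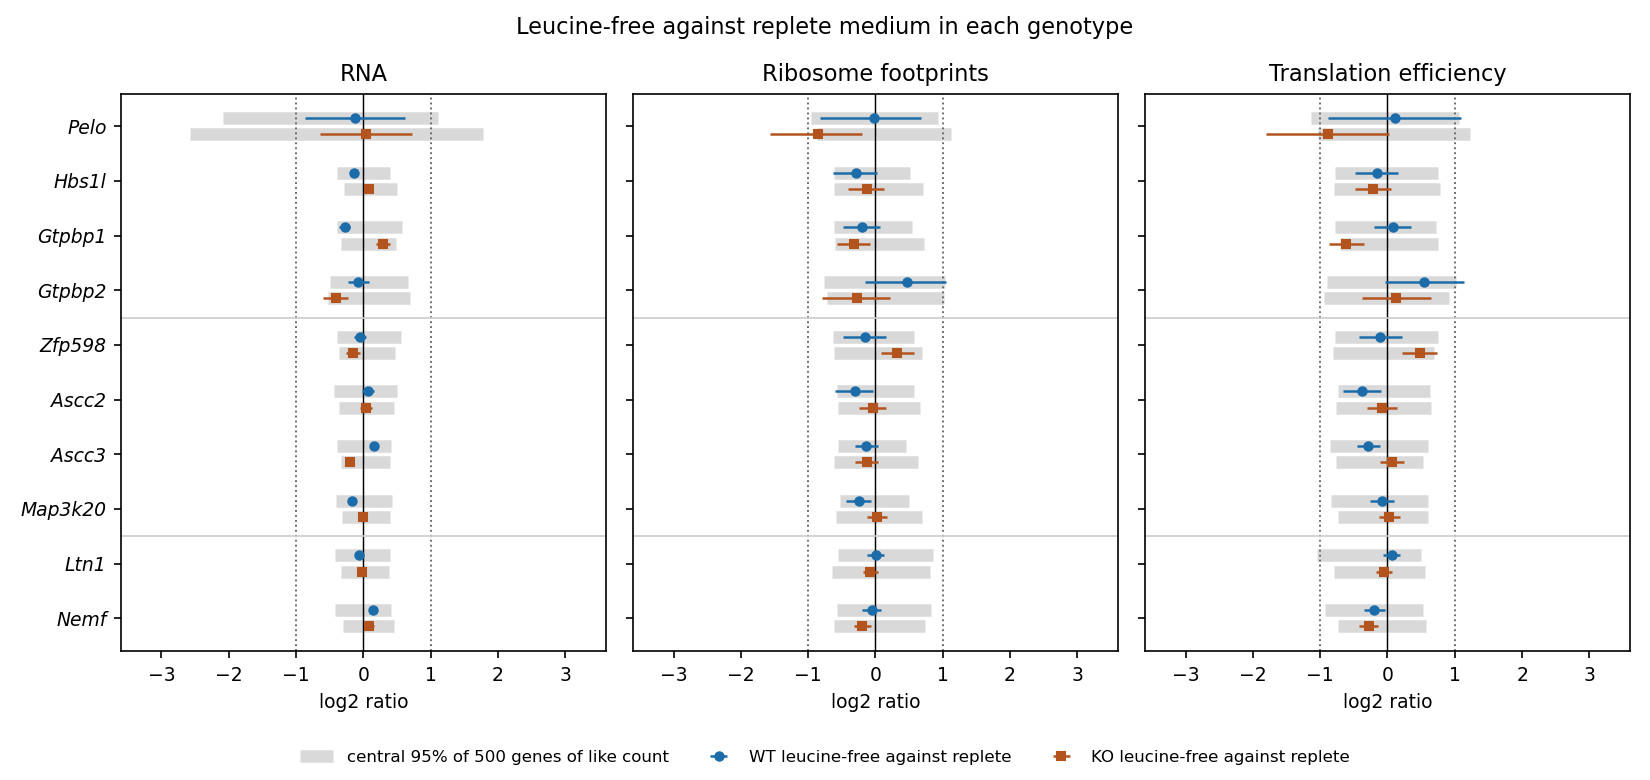
Log2 ratio of leucine-free to replete medium for each gene in RNA, footprints and translation efficiency, in WT cells (blue circles) and KO cells (brown squares); bars are 95% counting intervals, grey bands the central 95% of the 500 measured genes nearest in mean count, and dotted lines 2-fold. Every point lies between the dotted lines and on its grey band; RNA of Gtpbp1 falls on opposite sides of 0 in the 2 genotypes, at -0.28 and 0.29.

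The second factor of the design was the genotype. In replete medium no member passed in RNA (6.83% of all genes did) or in footprints (3.03%). In leucine-free medium none passed either, beside 8.35% of genes in RNA and 7.23% in footprints. RNA ratios of KO to WT were above 0 for 3 of 10 members in replete medium, beside 49.9% of genes, and for 5 of 10 in leucine-free medium, beside 50.1%. Footprint ratios were above 0 for 3 of 10, beside 50.4%, and for 4 of 10, beside 49.3%. The member medians were -0.08 and -0.02 in RNA and -0.05 and -0.185 in footprints, first with and then without leucine, while the medians of all genes were within 0.01 of 0. The RNA median in leucine-free medium was -0.08 without Pelo.

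Ascc3 and Ltn1 had fewer footprints in KO than in WT cells in both media. For Ascc3 the log2 ratio of KO to WT footprints was -0.40 (-0.52 to -0.27) with leucine and -0.39 (-0.59 to -0.19) without it. Its RNA ratio was -0.05 with leucine and -0.40 (-0.46 to -0.35) without. For Ltn1 the footprint ratios were -0.19 (-0.28 to -0.10) and -0.27 (-0.41 to -0.13), while its RNA ratios were 0.00 and 0.04. Ascc2 was on the other side. Its footprint ratio was 0.25 (0.08 to 0.42) with leucine and 0.52 (0.22 to 0.83) without, with RNA ratios of 0.18 and 0.16. Ascc2 and Ascc3, which encode 2 of the subunits of the ASC-1 complex, thus differed in opposite directions between the genotypes in both media in footprints. In RNA the same held, except that the Ascc3 ratio in replete medium turned to 0.05 when a trend with gene length was removed.

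Zfp598 differed in leucine-free medium, with a KO to WT footprint log2 ratio of 0.47 (0.14 to 0.82) against an RNA ratio of -0.21 (-0.31 to -0.11), and hardly at all in replete footprints, at 0.00 (-0.22 to 0.21). Gtpbp2 differed in replete medium, at 0.58 (0.15 to 1.01) in footprints and 0.00 (-0.16 to 0.15) in RNA. Gtpbp1 RNA was lower in KO replete cells by -0.50 (-0.59 to -0.41), while its footprint ratio there was -0.09 (-0.27 to 0.10). Hbs1l RNA was -0.29 (-0.35 to -0.23) and its footprint ratio -0.05. Nemf RNA was lower in KO cells in both media, at -0.20 (-0.27 to -0.14) and -0.26 (-0.33 to -0.20). Map3k20 ratios were between -0.20 and 0.07 in both assays.

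**Figure D3:**
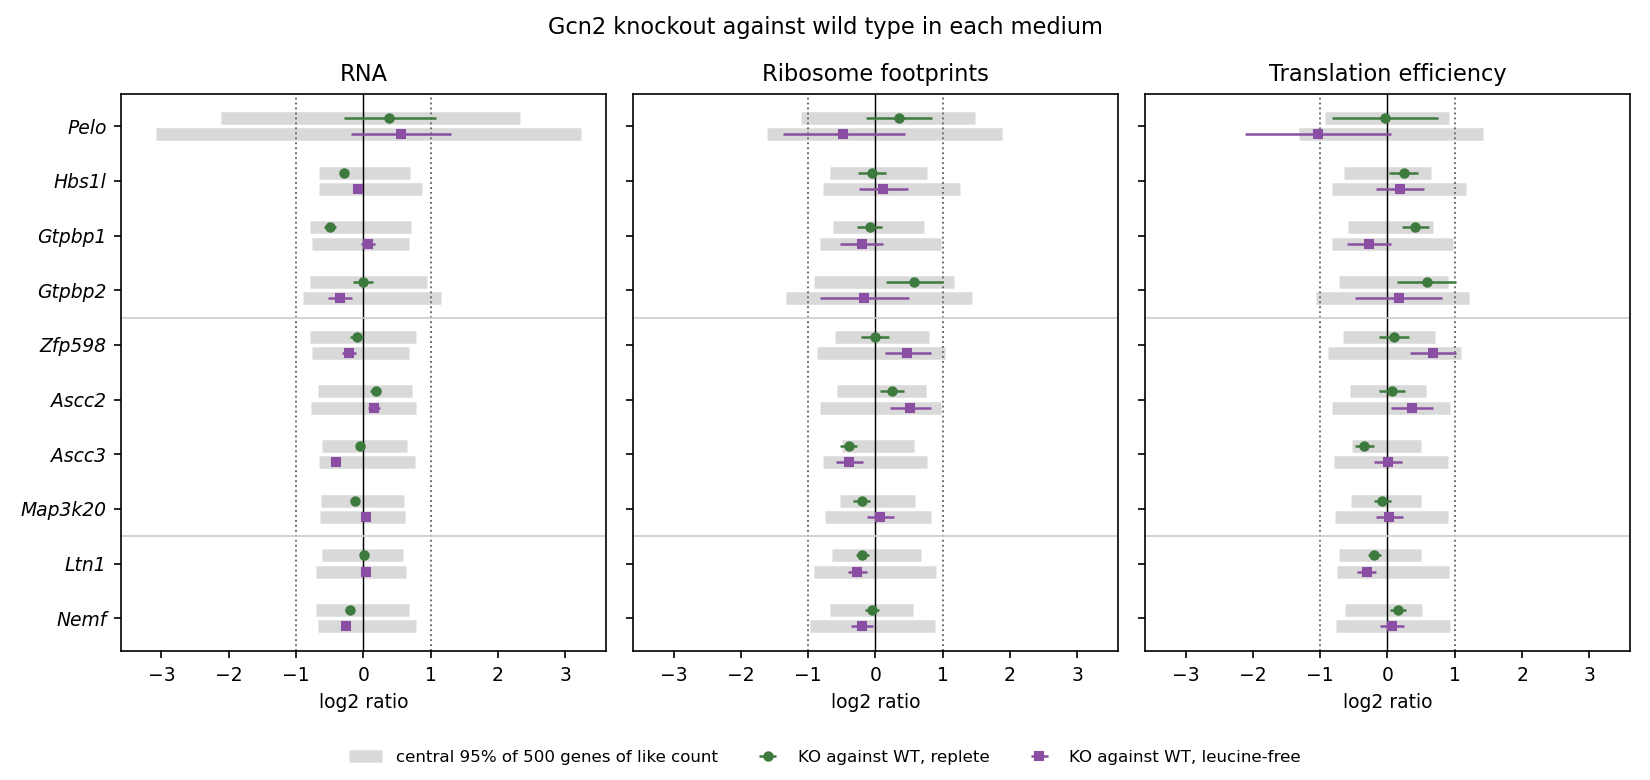
Log2 ratio of KO to WT for each gene in RNA, footprints and translation efficiency, in replete (green circles) and leucine-free medium (purple squares); bars are 95% counting intervals, grey bands the central 95% of 500 genes of like count, and dotted lines 2-fold. The footprint points of Ascc3 and Ltn1 are left of 0 and those of Ascc2 right of 0 in both media, and only the translation efficiency of Pelo in leucine-free medium reaches beyond a dotted line, at -1.04, with an interval that includes 0.

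Translation efficiency (TE), the footprint CPM of a gene divided by its RNA CPM, separated the members widely. Both CPM are shares of a library, so TE too is relative to other genes. Hbs1l and Map3k20 had few footprints for their RNA counts, both taken over whole exons with untranslated regions. Hbs1l had TE values of 0.381, 0.341, 0.45 and 0.388, above 12.1% to 20.0% of measured genes. Map3k20 had 0.377, 0.357, 0.356 and 0.363, and its highest library was 1.06 times its lowest, the narrowest spread of the members. For Map3k20 the library with the most RNA, WT replete, was also the one with the most footprints.

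At the other end, Nemf had TE values of 2.20, 1.92, 2.44 and 2.01, above 76.3% to 80.8% of genes. Pelo had 10.1, 10.9, 9.86 and 5.32, above 94.1% to 98.3% of genes. The Pelo intervals are wide, for example 3.21 to 8.79 in the KO library without leucine, and both its RNA and its footprints come from the minority of its exon sequence that is not shared with other genes. Whether that stretch holds the same share of the RNA reads as of the footprints was not tested. Ascc2 (0.928 to 1.26), Gtpbp1 (1.02 to 1.56), Zfp598 (0.879 to 1.41), Ascc3 (0.726 to 0.921), Ltn1 (0.703 to 0.871) and Gtpbp2 (0.567 to 0.930) lay around the value of 1 at which footprint and RNA CPM are equal.

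**Figure D4:**
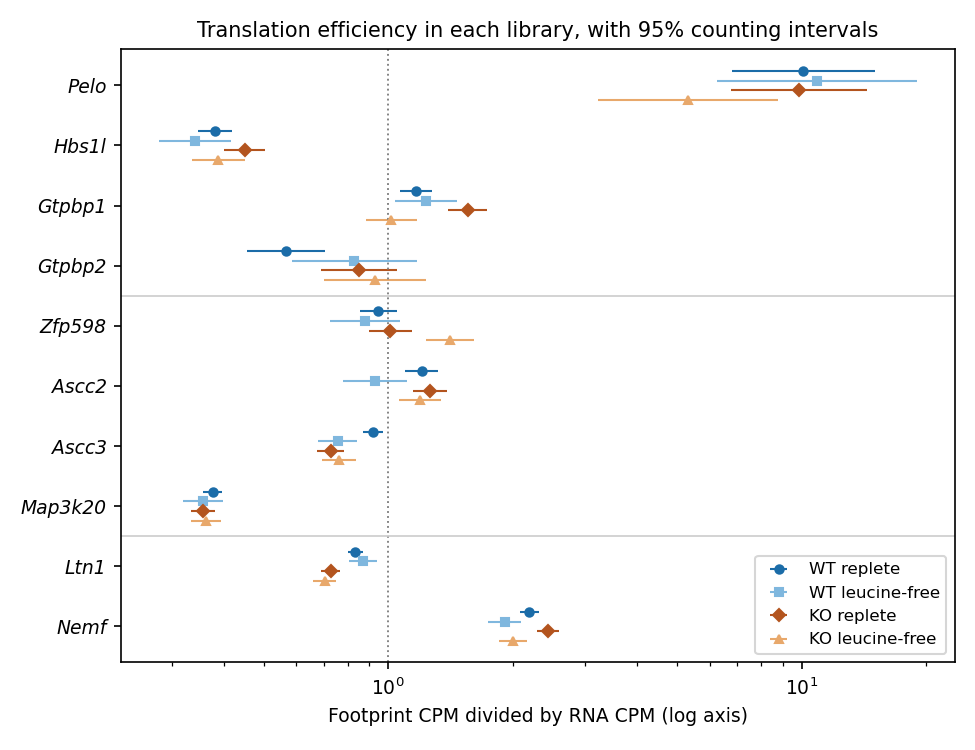
Translation efficiency (footprint CPM over RNA CPM, log axis) of each gene in the 4 states, with Wald 95% counting intervals; the dotted line marks 1. Hbs1l and Map3k20 sit left of the other genes in every state, Nemf and Pelo right of them, and Zfp598 in KO leucine-free cells lies at 1.41, to the right of its other 3 points.

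No member's TE passed the threshold in any comparison. The background was 2.95% of 9092 genes for leucine in WT, 2.99% for leucine in KO, 1.36% for KO against WT with leucine and 5.86% without it. Members above 0 numbered 4 of 10 (48.1% of all genes), 4 of 10 (48.4%), 6 of 10 (52.6%) and 7 of 10 (51.0%) in the same order. The medians were -0.09, -0.07, 0.08 and 0.05, against -0.02, -0.02, 0.02 and 0.01 for all genes.

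Among single members, Gtpbp1 and Zfp598 had the TE ratios whose intervals lay farthest from 0. Gtpbp1 TE went from 1.56 to 1.02 in KO cells without leucine, a log2 ratio of -0.61 (-0.87 to -0.35), with more RNA and fewer footprints in that library. In WT cells the Gtpbp1 TE ratio was 0.08 (-0.21 to 0.36). Zfp598 TE went from 1.01 to 1.41 in KO cells, a log2 ratio of 0.48 (0.22 to 0.74), against -0.11 (-0.43 to 0.21) in WT cells. Between genotypes, Zfp598 TE in leucine-free medium was higher in KO by 0.68 (0.34 to 1.03).

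Other TE ratios with intervals clear of 0 were as follows. Nemf TE was lower without leucine in both genotypes, by -0.20 (-0.35 to -0.04) in WT and -0.28 (-0.42 to -0.13) in KO. Ascc2 and Ascc3 had lower TE without leucine in WT cells, by -0.38 (-0.67 to -0.09) and -0.28 (-0.46 to -0.11). Their KO ratios, -0.08 and 0.07, had intervals that include 0. Ltn1 TE was lower in KO than in WT cells, by -0.20 (-0.29 to -0.10) with leucine and -0.31 (-0.46 to -0.16) without. Gtpbp2 TE was higher in KO replete than in WT replete cells, by 0.58 (0.15 to 1.02), as were those of Gtpbp1, by 0.41 (0.21 to 0.62), Hbs1l, by 0.24 (0.02 to 0.46), and Nemf, by 0.15 (0.03 to 0.27). Ascc3 TE was lower in KO replete cells, by -0.34 (-0.48 to -0.21), and Ascc2 TE was higher in KO cells without leucine, by 0.36 (0.06 to 0.67). Every one of these ratios lay within the central 95% of genes of like count.

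Subtracting the KO from the WT leucine response asks whether the response depended on GCN2. No member passed, beside 4.66% of genes in RNA, 4.62% in footprints and 7.83% in TE. Members above 0 numbered 5 of 10 in RNA (50.0% of all genes), 5 of 10 in footprints (52.2%) and 6 of 10 in TE (50.1%), with medians of -0.005, 0.04 and 0.07. In RNA, Gtpbp1 had -0.57 (-0.70 to -0.43), which lay just outside the central 95% of genes of like count, -0.56 to 0.59. That was the one member value, of 150, outside such a range. Ascc3 had 0.35 (0.28 to 0.42), Gtpbp2 0.34 (0.11 to 0.57) and Hbs1l -0.21 (-0.30 to -0.13).

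In footprints the difference was 0.75 (0.01 to 1.5) for Gtpbp2, -0.48 (-0.87 to -0.09) for Zfp598 and -0.27 (-0.50 to -0.04) for Map3k20. The Pelo value of 0.83 had an interval from -0.12 to 1.78. In TE, Gtpbp1 had 0.69 (0.30 to 1.07), Zfp598 -0.59 (-0.999 to -0.18) and Ascc3 -0.35 (-0.60 to -0.11). For comparison, the same difference for Atf4 was 0.72 (0.67 to 0.77) in RNA and 1.53 (1.36 to 1.69) in footprints. The member values are not independent of the genotype ratios above, since they come from the same libraries.

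Other genes of the same processes, listed by textbook role, also showed few ratios past 2-fold. The share of all genes past it in each comparison is the one already given. Of 16 further collision sensing and signalling genes, all measured in both assays, none passed in RNA or footprints. In TE, Rack1, a ribosomal scaffold protein needed for ubiquitylation at collisions, passed in WT cells at -1.02 (-1.08 to -0.96). Of 11 termination, recycling and stall-relief genes, Gspt2, a paralog of release factor GSPT1, was lower in KO than in WT cells in replete RNA (-1.12) and in leucine-free footprints (-1.37, -2.07 to -0.69). The leucine-free footprint counts of Gspt2 were 46 in WT and 32 in KO. Mcts1, a recycling factor, was lower in KO leucine-free RNA (-1.06). Eif5a2, a paralog of the factor that relieves stalls, had a WT minus KO difference of -1.17 in footprints and -1.53 in TE. Gspt2, Eif5a2 and Rack1 have close copies in the genome between which reads can be split or lost, so their values are uncertain.

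Of 11 genes for decay of stalled messages none passed in any of the 15 comparisons. Downstream of ZAK, 9 ribotoxic stress kinases were listed, of which 8 were measured in footprints. No kinase passed for leucine in either genotype. Mapkapk2, a target kinase of p38, had 1.21 (0.98 to 1.46) in footprints of KO against WT leucine-free cells and 1.23 in TE, with WT minus KO differences of -1.24 and -1.63. Mapkapk3 had differences of 1.21 in footprints and 1.59 in TE, opposite in sign to its relative.

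The ATF4 and CHOP effectors contrasted with the stalling genes. In WT cells without leucine 5 of 13 measured effectors passed upward in footprints and none downward, beside 1.46% of all genes in either direction, with a median of 0.92. The largest ratios were those of Ddit3 (3.66), Chac1 (2.90), Atf3 (1.97) and Trib3 (1.23), which encode stress transcription factors, a glutathione-degrading enzyme and a pseudokinase. In KO cells 3 of 13 passed upward, beside 2.10%, with a median of 0.28, and these were Ddit3 (3.64, 2.32 to 5.74), Atf3 (2.74) and Ddit4 (1.21). In RNA 5 of 15 passed upward and 1 downward in WT, with a median of 0.46, and 2 passed upward in KO, with a median of 0.16. The RNA ratios of Chac1, Atf3 and Trib3 in WT were 2.43, 1.6 and 1.40, and that of Vldlr was -2.10. In KO RNA the 2 were Atf3 (3.93) and Ddit4 (1.14).

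**Figure D5:**
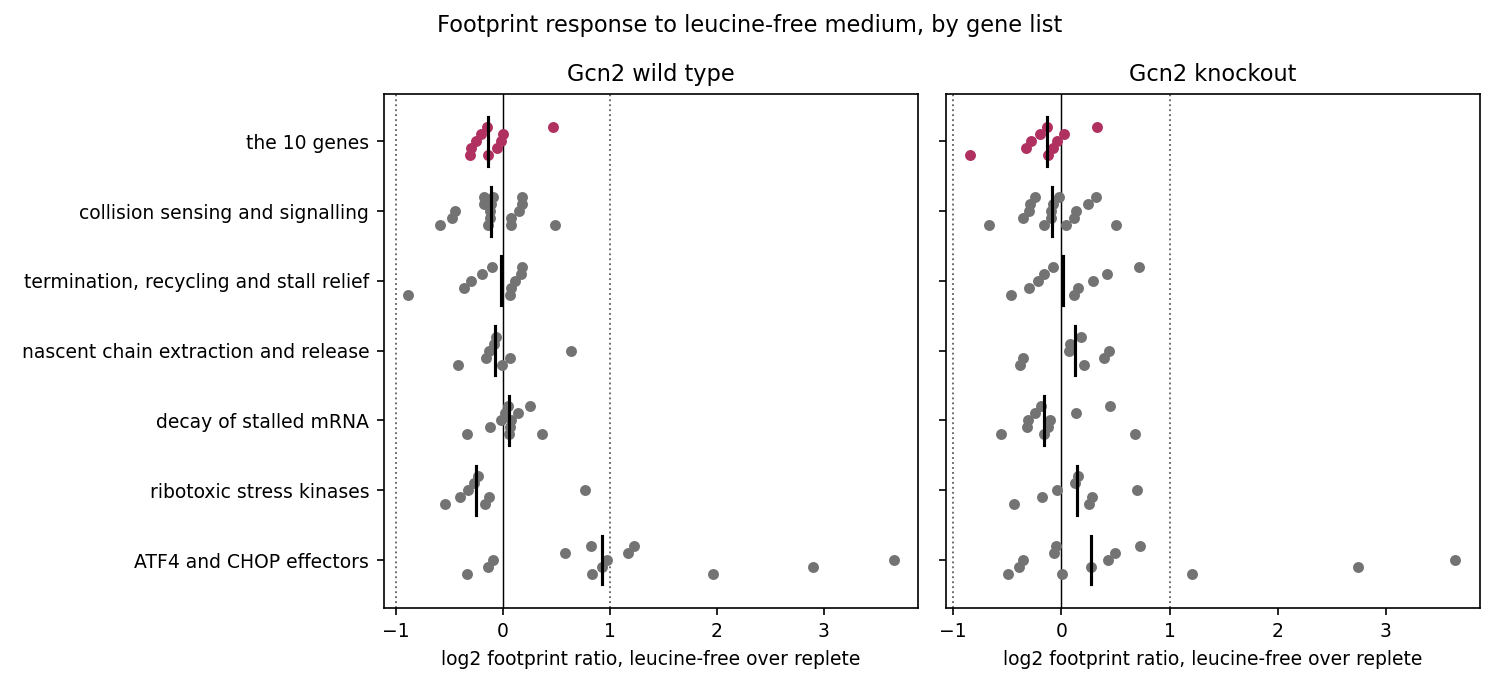
Footprint log2 ratio of leucine-free to replete medium for each measured gene, by list, in WT (left) and KO cells (right); 1 point per gene, a black bar at the list median, dotted lines at 2-fold. The 10 stalling genes and the 5 other lists of these processes stay within 2-fold, while 5 ATF4 and CHOP effectors in WT and 3 in KO lie beyond it.

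The promoter windows of the genes were searched for the core of the C/EBP-ATF response element, TGATGNAA, on both strands. The window ran from 250 bases before to 50 after the RefSeq start (GRCm38.p6), and all 10 members had at least 1. None of their 11 windows held the motif, which occurs in 3.97% of 32851 windows. It was also absent from the collision (0 of 13 genes), termination (0 of 9), nascent-chain (0 of 7) and decay (0 of 8) lists. Of the ribotoxic stress kinases, 1 of 9 had it. The absence thus does not set the members apart from these lists. Among the 16 ATF4 and CHOP effectors, 8 had it (50.0%, beside 4.51% of all 27025 genes with a window). These effectors were listed for that role, so their share is not independent of it. Of the effectors that passed upward in WT footprints, Chac1, Atf3, Trib3 and Herpud1 had a match. Ddit3, with the largest ratio (3.66), had none, and Vldlr, with a WT RNA ratio of -2.10, had a match. The stretches below set 2 effectors that passed in WT footprints beside Gtpbp2. Gtpbp2 was the member with the highest WT footprint ratio, with an interval that includes 0. Capitals mark the motif, which reads on the strand opposite to the gene, in Chac1 (chr2:119351038-119351067, plus strand) and Atf3 (chr1:191183425-191183454, minus strand). In Gtpbp2 (chr17:46160912-46161031, plus strand, the 120 bases before the start) capitals mark the 2 nearest stretches, each with 2 mismatches among the 7 fixed letters. They are not matches. How often other windows hold stretches this near to the motif was not counted, so they do not set Gtpbp2 apart.
Chac1: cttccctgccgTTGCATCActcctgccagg
Atf3: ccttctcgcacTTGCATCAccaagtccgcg
Gtpbp2: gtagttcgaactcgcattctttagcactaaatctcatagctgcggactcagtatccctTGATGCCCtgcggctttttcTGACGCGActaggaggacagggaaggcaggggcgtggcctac
The Chac1 match starts 193 bases and the Atf3 match 110 bases before the gene's start, and the Gtpbp2 stretches begin 62 and 42 bases before it. A match describes letters in a window and says nothing of binding in these cells.

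The profiles of the members over the 8 libraries (log2 CPM centred within each assay) were finally compared with those of all other genes measured in both assays, for the 8 members with a mean count of 100 or more in each. The measure was the root mean square difference, in log2 units. Nearest to Map3k20 were Nucks1 (0.021) and Micall1 (0.037), to Nemf Iars (0.025) and Nudcd1 (0.028), and to Zfp598 Camkk2 (0.029) and Mbd2 (0.031). Nearest to Ltn1 were Txlna (0.033) and Fam107b (0.037), to Ascc3 Pnpt1 (0.042) and Sec63 (0.045), and to Ascc2 M6pr (0.043) and Capzb (0.049). Hbs1l lay nearest to Gmeb1 (0.043) and Cpsf6 (0.049), and Gtpbp1 to Arhgap39 (0.065) and Pcsk7 (0.066). No member had another member as its nearest gene. The closest pair of members was Hbs1l and Map3k20, at 0.077, and Map3k20 ranked 49th in likeness to Hbs1l among 9091 genes.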

How the data were processed

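RNA-seq and ribosome profiling each gave 4 libraries, 1 per state. Per the labels' protocols, lysates contained cycloheximide and footprints were made with ribonuclease I. Per the submitters' processing notes, cutadapt, STAR, Subread and featureCounts were used with GRCm38. The deposited values are raw read counts per gene, made, per the file headers, with featureCounts 1.6.4 on Ensembl release 96 exons, with no option for strand or for reads over several genes. Counts thus include untranslated regions. Scale factors came from the trimmed mean of M-values (edgeR 4.0.16, R 4.3.3) over protein-coding genes with a mean count of at least 30, classed by RefSeq symbol. Symbols were matched for 55450 of 55536 genes. Ratios are log2 with a prior count of 0.5. Library pairs have exact conditional binomial (Clopper-Pearson) 95% intervals, TE and WT minus KO values Wald intervals. PCR reads carry no molecular identifiers here, so intervals cover counting error only. With 1 library per group no test across cultures was possible and no p-value was computed. The ratio code was tested on simulated counts. Calculations used Python 3.11.15, numpy 2.4.6, pandas 2.3.3, scipy 1.17.1 and, for the length trend, statsmodels 0.14.6. Plots used matplotlib 3.10.9. The members, lists and tests were chosen with earlier results of these data known. All 10 members are described, and of each list up to 4 genes past 2-fold per comparison, largest first. A result from the lists is not reported here. For likeness, the 2 nearest genes of each member with a mean count of 100 or more in both assays are named. Alternatives were DESeq2 1.42.0 size factors, total counts, a prior count of 2, removal of a length trend, other filters and a 1.5-fold threshold, and, chosen after seeing the data, leaving out Pelo.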

Additional observations from a re-analysis of the deposited data

Results flagged for a closer look

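The RNA responses of 3 members to leucine-free medium had opposite signs in WT and KO cells, with both counting intervals clear of 0, as did 15.1% of all 10808 genes measured in RNA. Gtpbp1 RNA was lower without leucine in WT (-0.28) and higher in KO (0.29), a WT minus KO difference of -0.566. Hbs1l RNA was lower in WT (-0.13) and higher in KO (0.08), a difference of -0.214. Ascc3 RNA was higher in WT (0.15) and lower in KO (-0.20), a difference of 0.348. With 1 library per group the differences were not tested across cultures. Footprint ratios of the same genes were below 0 in both genotypes, for Gtpbp1 (-0.20 and -0.32), Hbs1l (-0.29 and -0.13) and Ascc3 (-0.13 and -0.13). Of these, only the Gtpbp1 interval in KO cells (-0.57 to -0.08) was clear of 0. The other footprint intervals include 0, so those signs are not settled and cannot be set against the RNA signs.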

How the results depend on the processing

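The count of members past 2-fold stayed at 0 in all 15 comparisons with DESeq2 size factors, total counts, a prior count of 2, a mean count of at least 100, a mean count of at least 1, and without Pelo. With a length trend removed, 1 member passed in TE of KO against WT leucine-free cells, Pelo at -1.13 (-2.21 to -0.04), beside 5.85% of genes. At 1.5-fold, 1 member passed in footprints of KO leucine-free against replete cells (Pelo, beside 11.1% of genes), 1 in the WT minus KO footprint difference (Gtpbp2, 15.2%), 1 in TE of KO leucine-free against replete (Gtpbp1, 15.9%), 1 in TE of KO against WT leucine-free (Zfp598, 20.9%) and 2 in the WT minus KO TE difference (Gtpbp1 and Zfp598, 21.9%). The median RNA ratio of KO to WT leucine-free cells went from -0.02 to -0.079 both with a mean count of at least 100 and without Pelo, each of which leaves 9 members. Of 150 member ratios, none left its interval under the other scalings or prior count, and 14 did with the length trend removed, the largest shift being 0.276. That setting changed 14 signs, 2 of them with an interval clear of 0: Ltn1 RNA for leucine in WT (-0.06 to 0.02) and Ascc3 RNA for KO against WT in replete medium (-0.05 to 0.05). Total counts changed 6 signs and a prior count of 2 changed 1, none with an interval clear of 0. Among these, the footprint ratio for leucine turned to 0.02 for Ascc2 in KO (total counts) and to 0.06 for Pelo in WT (prior count of 2). The counts of members above 0 thus depend on these settings.

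Over the 15 comparisons, the share of all genes past 2-fold ran from 1.36% to 8.35% at a mean count of 30, from 0.67% to 5.54% at 100 and from 2.03% to 13.5% at 1. At 1.5-fold it ran from 6.60% to 21.9%. Total counts moved the share of higher among passing TE genes from 52.9% to 68.5% for leucine in KO and from 67.2% to 77.2% for KO against WT without leucine. Removing the length trend moved it from 49.7% to 38.8% in RNA for leucine in WT, and in TE from 41.8% to 54.8% for leucine in WT and from 45.2% to 57.0% for KO against WT with leucine. The filter moved it further: at mean counts of 100 and 1 it was 81.8% and 37.3% in RNA for leucine in WT and 22.3% and 69.6% in TE for leucine in WT. No paired analysis was possible because each group has 1 library. Depth limits Pelo and Gtpbp2 most: the WT leucine-free footprint library held 20 and 33 of their reads.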
